A study of Arabidopsis thaliana with 24 samples.

Results

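CAMTA1 to CAMTA6 are the 6 calmodulin-binding transcription activators of Arabidopsis thaliana, and their transcript levels were followed in seedlings grown with or without TiO2. The members were found by locus identifier, and all 6 had a value in both tissues, among 20336 genes measured in roots and 19495 in shoots. After 10 days with TiO2, roots had higher levels of CAMTA2, CAMTA3, CAMTA4 and CAMTA5, with CAMTA3 differing most. Shoots had higher levels of CAMTA3, CAMTA4 and CAMTA6 at that time. By the limit used here, 23.7% of all genes were also higher in roots and 24.2% in shoots. The CAMTA6 difference fell under that limit with 1 other scaling. No difference was tested, since each group held 1 value. CAMTA1 was not higher with TiO2 by more than the limit used here in any tissue or at any time.

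All seedlings were of the wild type Col-0, which carries no transgene or mutation. They germinated for 5 days on agar with 0.1X Murashige and Skoog salts and were then moved to the same medium with 2 mM Ti, given as TiO2 nanopowder (Ti), or to medium without it (Ctrl). Roots (R) and shoots (S) were collected after 3 or 10 days (3D, 10D), and each sample pooled 160 seedlings, so differences among plants were averaged out before sequencing. The 8 groups were Ti-R-10D, Ctrl-R-10D, Ti-R-3D, Ctrl-R-3D, Ti-S-10D, Ctrl-S-10D, Ti-S-3D and Ctrl-S-3D, with 3 libraries in each and 24 in all.

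The deposited values are log2 CPM (read counts relative to the size of the library), and the 3 columns of each group were identical in every row. There was thus 1 value per group and gene, no spread between replicates could be computed, and no difference below was tested. The log2 fold change (log2F.C.) of a gene was taken as Ti minus Ctrl within a tissue and day. Genes above 0.2, which is 14.9% more transcript, were called higher and those below -0.2 lower, and the counts below stand beside the share of all genes called in the same way. Where a measure of ordinary variation is given, it is the robust SD of log2F.C. over genes of at least 10 CPM, which is a spread among genes and not an error. This spread was 0.0823 in roots collected after 3 days and 0.227 after 10, and in shoots 0.109 after 3 days and 0.220 after 10. The deposited values hold no read counts, so the depth behind each value cannot be read from them. In pooled tissue, fewer cells that express a gene and less of its RNA per cell cannot be told apart.

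CAMTA proteins carry a DNA-binding CG-1 domain, ankyrin repeats, and motifs at the C-terminal side that bind calmodulin, the main calcium sensor of plant cells. They read calcium signals raised by cold, touch, wounding and pathogens, and bind promoter elements with a CGCG core. CAMTA3, also called SR1, is best known for holding back salicylic acid immunity, a task it shares with CAMTA1 and CAMTA2. The same proteins help to induce the CBF genes of cold acclimation, CAMTA2 helps to induce the malate transporter gene ALMT1 under aluminium, and CAMTA5 acts with CAMTA3 in the response to a rapid fall in temperature.

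The members lie apart in the genome. In the TAIR10.1 assembly, CAMTA1 (AT5G09410) is at chr5:2920827-2927480 on the plus strand and CAMTA2 (AT5G64220) at chr5:25686193-25692339, plus strand. CAMTA3 (AT2G22300) is at chr2:9471219-9476646, plus strand, and CAMTA4 (AT1G67310) at chr1:25198182-25203126, minus strand. CAMTA5 (AT4G16150) is at chr4:9148059-9153292 and CAMTA6 (AT3G16940) at chr3:5781418-5786310, both on the plus strand. Their longest annotated transcripts span 3051 bases (CAMTA4, whose model has no untranslated part) to 3929 bases (CAMTA3), with 10 coding exons in CAMTA6 and 16 in CAMTA1.

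CAMTA1 and CAMTA2 form 1 pair of close copies, with 81.0% identical bases over their aligned coding sequences, and CAMTA5 and CAMTA6 form another, with 78.5%. The other 13 pairs had 59.8% to 66.2%. Stretches long enough to confuse the members were few. No stretch of 31 bases in CAMTA1, CAMTA2 or CAMTA4 occurred in another gene, and CAMTA5 and CAMTA6 shared 10 such stretches with each other, 0.259% of those of CAMTA6. CAMTA3 shared 39 stretches, 0.944% of its own, with AT2G22310 on the opposite strand, which overlaps it over 69 of 4103 exonic bases. Levels of AT2G22310 were 15.9 CPM in Ti-R-10D and 16.5 CPM in Ctrl-R-10D, far under those of CAMTA3. In shoots it had 6.07 CPM in Ti-S-10D and 4.65 CPM in Ctrl-S-10D (log2F.C. 0.38), also far under CAMTA3.

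The sequences around the gene starts of the close pair CAMTA1 and CAMTA2 and of CAMTA3 are shown because CAMTA3 differed most and CAMTA1 least between Ti and Ctrl roots at 10 days, and CAMTA2 is the close copy of CAMTA1. Each line holds 250 bases before the annotated start and the first 30 bases of the gene in TAIR10.1. Capitals mark CACGTG, the G-box bound by bZIP and bHLH factors, a motif that was added after the windows had been read.
CAMTA1, chr5:2920577-2920856: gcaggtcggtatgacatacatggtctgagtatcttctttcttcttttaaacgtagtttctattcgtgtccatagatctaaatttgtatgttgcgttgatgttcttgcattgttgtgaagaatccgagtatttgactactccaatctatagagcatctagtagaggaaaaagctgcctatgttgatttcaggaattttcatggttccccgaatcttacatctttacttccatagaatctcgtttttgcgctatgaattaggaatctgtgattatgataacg
CAMTA2, chr5:25685943-25686222: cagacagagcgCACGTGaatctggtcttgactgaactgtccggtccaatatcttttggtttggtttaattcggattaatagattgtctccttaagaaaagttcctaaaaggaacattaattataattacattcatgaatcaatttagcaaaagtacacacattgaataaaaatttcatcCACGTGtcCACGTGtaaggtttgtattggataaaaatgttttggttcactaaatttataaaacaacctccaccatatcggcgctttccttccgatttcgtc
CAMTA3, chr2:9470969-9471248: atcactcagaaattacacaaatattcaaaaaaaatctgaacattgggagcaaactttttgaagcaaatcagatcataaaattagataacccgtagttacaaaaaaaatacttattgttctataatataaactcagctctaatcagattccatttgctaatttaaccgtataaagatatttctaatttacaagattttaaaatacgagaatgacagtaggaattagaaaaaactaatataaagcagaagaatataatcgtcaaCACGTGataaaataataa
The CAMTA2 window holds CACGTG 3 times, the CAMTA3 window once, just inside the gene, and the CAMTA1 window not at all. CAMTA4 also has 1 copy, 36 bases before its start, while CAMTA5 and CAMTA6 have none. Of 27443 windows of the same length, 7.24% hold the motif. It reads the same on both strands. The core CGCG, which also reads the same on both strands, occurs in the window of CAMTA6 alone among the members, and in 11.9% of all windows.

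In roots after 3 days, no member differed by more than a few percent. Levels of CAMTA3 were 64.0 CPM in Ti-R-3D and 63.7 CPM in Ctrl-R-3D (log2F.C. 0.01). CAMTA5, the most abundant member per length in these roots, had 90.9 CPM in Ti-R-3D and 89.2 CPM in Ctrl-R-3D (log2F.C. 0.03). The largest difference of the 6 was that of CAMTA4, with 66.7 CPM in Ti-R-3D and 65.0 CPM in Ctrl-R-3D (log2F.C. 0.04). All 6 log2F.C. lay between -0.01 and 0.04, within the robust SD of 0.0823. No member passed the limit, against 8.51% of all genes called higher and 8.38% called lower.

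**Figure D1:**
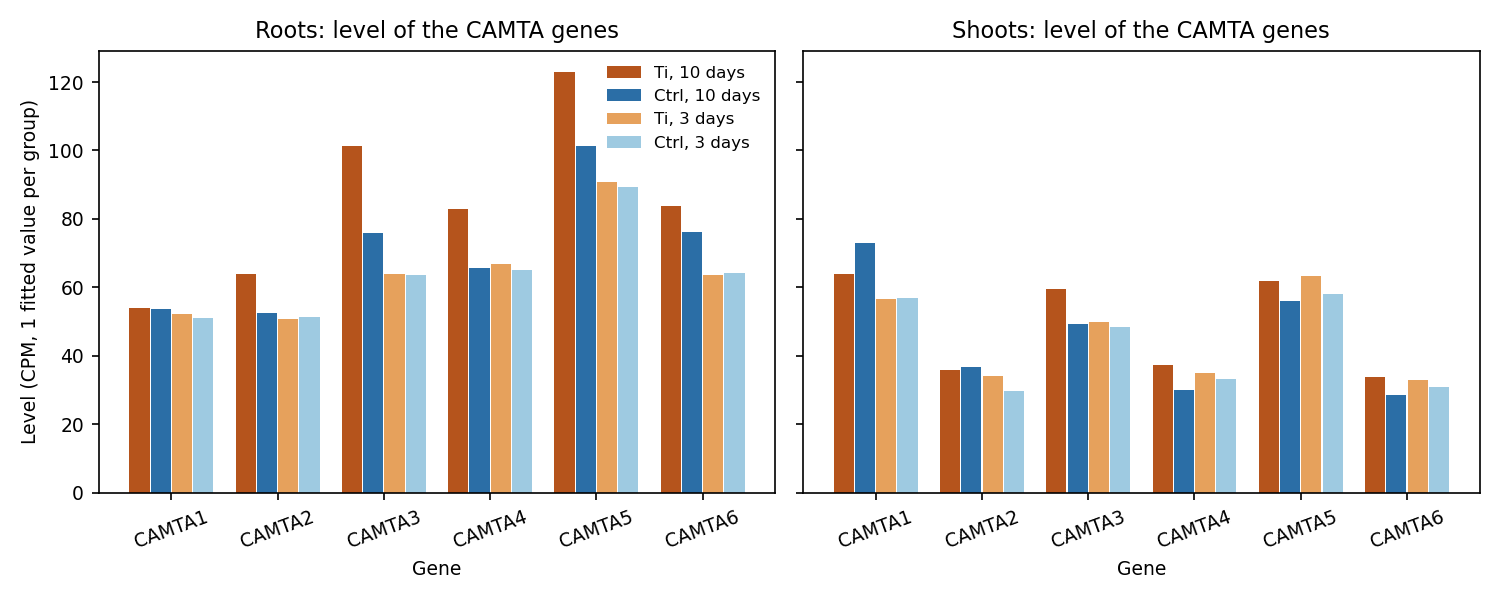
Levels of the 6 CAMTA genes in CPM in roots (left) and shoots (right), with 1 bar per group (Ti and Ctrl at 10 days, then at 3 days) and no error bars, since each group holds 1 value. The bar of CAMTA3 in Ti roots at 10 days stands at 101 CPM beside 76.0 CPM in Ctrl roots, while both bars of CAMTA1 stand near 54 CPM.

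After 10 days, 4 of 6 members were higher in Ti roots and none was lower, against 23.7% of all genes higher and 22.3% lower. CAMTA3 reached 101 CPM in Ti-R-10D, against 76.0 CPM in Ctrl-R-10D, a log2F.C. of 0.41 or 33.2% more transcript. That difference exceeded those of 95.2% of genes of at least 10 CPM. CAMTA4 had 82.8 CPM in Ti-R-10D and 65.6 CPM in Ctrl-R-10D (log2F.C. 0.34), above 92.0% of such genes.

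The close copies CAMTA1 and CAMTA2 parted in roots. CAMTA2 had 63.9 CPM in Ti-R-10D and 52.4 CPM in Ctrl-R-10D (log2F.C. 0.29), whereas its copy CAMTA1 had 54.1 CPM in Ti-R-10D and 53.7 CPM in Ctrl-R-10D (log2F.C. 0.01). CAMTA5 had 123 CPM in Ti-R-10D and 101 CPM in Ctrl-R-10D (log2F.C. 0.28). CAMTA6, described for its part in the salt response of seedlings, had 83.7 CPM in Ti-R-10D and 76.1 CPM in Ctrl-R-10D (log2F.C. 0.14), which is under the limit. The differences of CAMTA2, CAMTA4 and CAMTA5 lay between 0.28 and 0.34, under 1.5 times the robust SD of 0.227, a size that many other genes also had. Beyond 0.3, 2 of 6 members remained, CAMTA3 and CAMTA4, against 14.7% of all genes higher.

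Summed over the 6 genes, CAMTA transcripts made up 509 CPM in Ti-R-10D and 425 CPM in Ctrl-R-10D (log2F.C. 0.26), after 388 CPM in Ti-R-3D and 384 CPM in Ctrl-R-3D. The median log2F.C. of the members was 0.28 at 10 days, beside 0.02 over all genes. Marker genes of both organs also differed between these roots. The 7 markers of green shoot tissue, such as LHCB and RBCS genes, were all listed in roots. They summed to 1062 CPM in Ti-R-10D and 904 CPM in Ctrl-R-10D, and to 52696 to 69574 CPM in the shoot groups. Of these, LHCB1.3 had 403 CPM in Ti-R-10D and 280 CPM in Ctrl-R-10D, while LHCB2.1 went the other way (log2F.C. -0.11). After 3 days the same markers summed to 668 CPM in Ti-R-3D and 550 CPM in Ctrl-R-3D. The 7 root markers, CASP genes of the endodermis with EXPA7 and COBL9 of root hairs, summed to 249 CPM in Ti-R-10D and 212 CPM in Ctrl-R-10D. In shoots 2 of these 7 were listed, with sums of 1.53 to 2.48 CPM. The part of either organ's markers in the CAMTA difference was not tested.

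**Figure D2:**
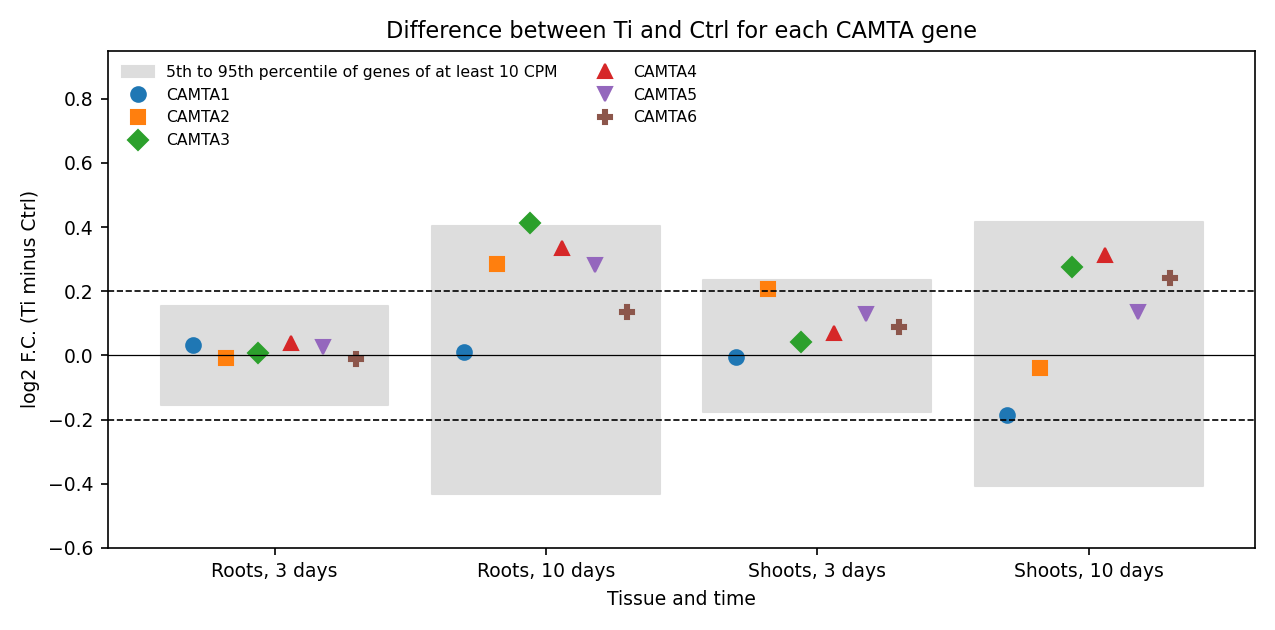
log2F.C. (Ti minus Ctrl, vertical axis) of each CAMTA gene in roots and shoots after 3 and 10 days. Grey bands run from the 5th to the 95th percentile of genes of at least 10 CPM and dashed lines mark 0.2 in both directions. CAMTA3 in roots at 10 days (0.41) is the 1 point above its band, whose upper edge is at 0.40.

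Shoots at 3 days showed small differences in a single direction for most members. CAMTA2 had 34.2 CPM in Ti-S-3D and 29.6 CPM in Ctrl-S-3D (log2F.C. 0.21). It was the 1 of 6 members called higher, against 13.1% of all genes, and 0 members were lower, against 12%. With quantile normalization its log2F.C. was 0.18 and the call was lost. CAMTA5 had 63.5 CPM in Ti-S-3D and 58.0 CPM in Ctrl-S-3D (log2F.C. 0.13), and CAMTA1, CAMTA3, CAMTA4 and CAMTA6 lay between -0.01 and 0.09.

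After 10 days in shoots, 3 of 6 members were higher and none was lower, against 24.2% of all genes higher and 21.7% lower. CAMTA4 differed most, with 37.3 CPM in Ti-S-10D and 30.01 CPM in Ctrl-S-10D (log2F.C. 0.31), above 90.3% of genes of at least 10 CPM. CAMTA3 had 59.6 CPM in Ti-S-10D and 49.3 CPM in Ctrl-S-10D (log2F.C. 0.27). CAMTA6 had 33.9 CPM in Ti-S-10D and 28.7 CPM in Ctrl-S-10D (log2F.C. 0.24), but 0.19 when the listed CPM were scaled to the same sum. CAMTA3 and CAMTA4 were thus the members called higher at 10 days in both organs. Beyond 0.3, CAMTA4 alone remained in shoots, against 15.3% of all genes higher. The robust SD in shoots at 10 days was 0.220.

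CAMTA1 stood on the other side in shoots. It had 64.1 CPM in Ti-S-10D and 72.9 CPM in Ctrl-S-10D (log2F.C. -0.19), lower than all but 18.8% of genes of at least 10 CPM. The value was -0.2016 after median scaling and -0.23 after scaling to the same sum, both past the limit. With 1 CPM added it was -0.18 and with quantile normalization -0.20, neither past the limit. The deposited value lay within the robust SD of 0.220. CAMTA2 had 35.8 CPM in Ti-S-10D and 36.7 CPM in Ctrl-S-10D (log2F.C. -0.04). The shoot markers summed to 60614 CPM in Ti-S-10D and 52696 CPM in Ctrl-S-10D, and their part in these differences was not tested. The family sum was 292 CPM in Ti-S-10D and 274 CPM in Ctrl-S-10D, and 272 CPM in Ti-S-3D and 257 CPM in Ctrl-S-3D. Roots and shoots were normalized separately, so their log2F.C. stand side by side here with no test of a difference.

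The same group values were also compared between times. In Ti roots, CAMTA3 had a log2 difference of 0.66 between 10 and 3 days, and in Ctrl roots 0.25. CAMTA4 differed by 0.31 in Ti roots and 0.02 in Ctrl roots, and CAMTA2 by 0.33 in Ti roots and 0.03 in Ctrl roots. In Ctrl roots the levels of these 2 genes were thus nearly the same at both times. CAMTA5 differed by 0.44 in Ti roots and 0.18 in Ctrl roots, and CAMTA6 by 0.40 in Ti roots and 0.25 in Ctrl roots. CAMTA1 was level in both, at 0.06 and 0.08.

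Between 3 and 10 days, 5 of 6 members were higher in Ti roots and none was lower, against 33.9% of all genes higher and 35.1% lower. In Ctrl roots 2 of 6 were higher and none was lower, against 30.4% higher and 30.6% lower. Both Ctrl calls, CAMTA3 and CAMTA6, lay under the limit after quantile normalization, at 0.19 and 0.18. In shoots, CAMTA3 alone was called higher with time under Ti (0.25), against 35.0% of all genes higher and 34.9% lower. CAMTA1 (0.36) and CAMTA2 (0.31) were higher with time in Ctrl shoots, against 33.0% of all genes higher and 34.6% lower. CAMTA4 differed by 0.09 in Ti shoots and -0.15 in Ctrl shoots, and CAMTA6 by 0.04 in Ti shoots and -0.11 in Ctrl shoots. The 10-day seedlings were a week older, so age and time on the medium cannot be told apart.

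**Figure D3:**
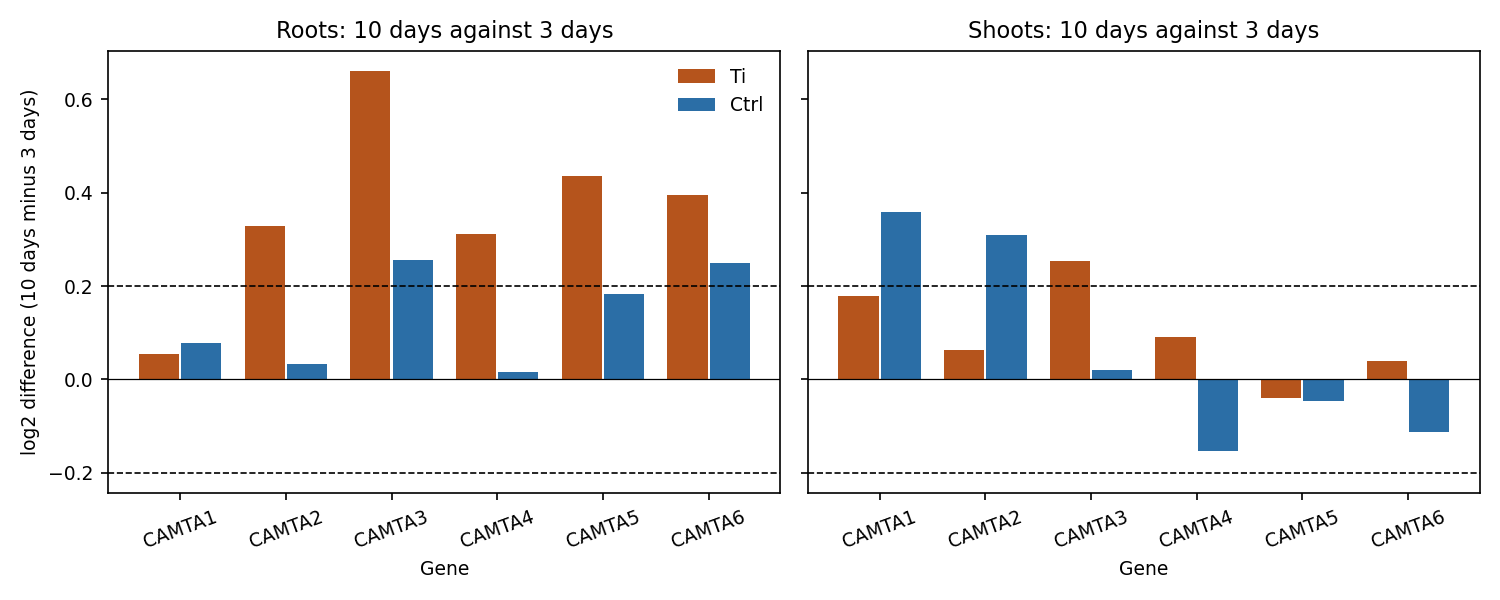
log2 difference between 10 and 3 days (vertical axis) for each CAMTA gene in roots (left) and shoots (right), with a bar for Ti beside one for Ctrl and dashed lines at 0.2 in both directions. In roots the Ti bar is the taller one for CAMTA2 to CAMTA6, and CAMTA3 has the tallest (0.66); CAMTA1 and CAMTA2 have the tallest Ctrl bars in shoots (0.36 and 0.31).

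To compare levels among members, CPM were divided by the length of the longest transcript. CAMTA5 was then the most abundant member in 7 of 8 groups, with 38.7 CPM per kb in Ti-R-10D and 31.8 CPM per kb in Ctrl-R-10D. In Ctrl-S-10D alone CAMTA1 stood first, with 21.0 CPM per kb, ahead of CAMTA5 with 17.7 CPM per kb. CAMTA2 was lowest in Ti-R-3D, Ctrl-R-3D, Ctrl-R-10D, Ti-S-3D, Ctrl-S-3D and Ti-S-10D, at 7.73 to 13.7 CPM per kb. CAMTA1 was lowest in Ti-R-10D (15.6 CPM per kb) and CAMTA6 in Ctrl-S-10D (8.43 CPM per kb). No spread is known for any of these levels, so it cannot be said which neighbours in the order differ.

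The make-up of the family differed between organs. CAMTA1 gave 10.5% of the per-length sum in Ti-R-10D and 12.5% in Ctrl-R-10D, but 21.8% in Ti-S-10D and 26.6% in Ctrl-S-10D. CAMTA3 gave 17.4% in Ti-R-10D and 15.6% in Ctrl-R-10D, which put it ahead of CAMTA6 in Ti roots but behind it in Ctrl roots when divided by transcript length. Divided by coding length instead, CAMTA5 was first in the same groups, the shares of CAMTA6 were higher, and CAMTA6 stood ahead of CAMTA3 in Ti roots too, at 33.0 and 32.7 CPM per kb. Within a gene, root CPM over shoot CPM was lowest for CAMTA1, at 0.737 to 0.920 over the 4 conditions, and highest for CAMTA6, at 1.93 to 2.65. CAMTA1 was the member whose CPM were higher in shoots than in roots in all 4 conditions.

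Over the 8 groups, with the mean of each organ taken away, CAMTA5 and CAMTA6 had the most similar patterns of any 2 members (Pearson r = 0.94). CAMTA3 went with both, at r = 0.92 with CAMTA5 and 0.90 with CAMTA6. CAMTA1 stood apart, with r between -0.22 (with CAMTA4) and 0.60 (with CAMTA2). These are descriptions over 8 group values that share 2 normalizations.

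**Figure D4:**
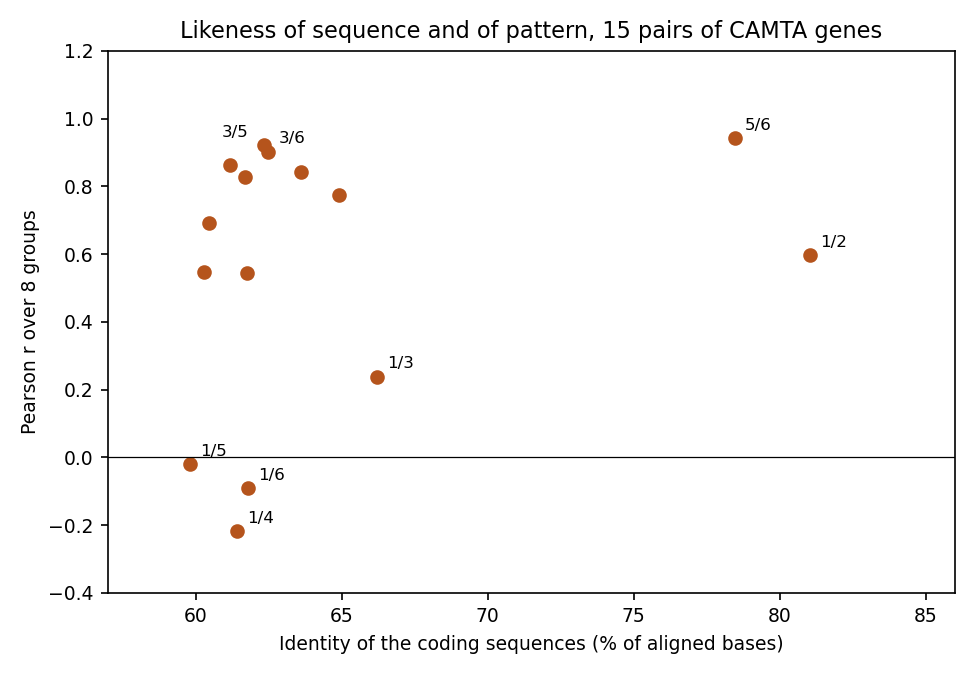
Identity of coding sequences in percent of aligned bases (horizontal axis) against Pearson r of the patterns over 8 groups (vertical axis) for the 15 pairs of CAMTA genes, with some pairs named by number. The 2 close pairs lie at the right, CAMTA5 and CAMTA6 with r = 0.94 and CAMTA1 and CAMTA2 with r = 0.60, and the lowest points all belong to CAMTA1.

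Among 10229 genes of at least 10 CPM on average in each organ, those with patterns most like CAMTA3 were TGH (AT5G23080), an RNA-binding protein of microRNA processing (r = 0.99), LpxC2 (AT1G24880), which has near-identical copies (r = 0.99), and AT5G44090 (r = 0.99). TGH had a log2F.C. of 0.44 in roots and 0.20 in shoots at 10 days. The most alike gene was cpHsc70-2 (AT5G49910), a chloroplast chaperone, for CAMTA1 (r = 0.99), AT1G69340 for CAMTA2 (r = 0.98) and ADR1-L1 (AT4G33300), a helper immune receptor, for CAMTA4 (r = 0.97). For CAMTA5 it was DL1E (AT3G60190), a dynamin-related protein (r = 0.99), and for CAMTA6 AMI1 (AT1G08980), an amidase (r = 0.995). These r rest on 8 values each and are descriptions, and by Spearman's rho other genes led for every member.

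Upstream of the family in the pathway stand the calmodulins. All 7 CAM genes had lower values in Ti roots at 10 days, and 3 of 7 passed the limit, with a median of -0.20, against 22.3% of all genes lower. CAM7 had 87.9 CPM in Ti-R-10D and 119 CPM in Ctrl-R-10D (log2F.C. -0.44), and CAM5 had 90.4 CPM in Ti-R-10D and 122 CPM in Ctrl-R-10D (log2F.C. -0.44). In roots, calmodulin transcripts thus lay on the opposite side from CAMTA3. In shoots at 10 days 2 of 7 were higher, near the 24.2% of all genes higher, and none lower, with a median of 0.16. There CAM7 had 48.0 CPM in Ti-S-10D and 47.0 CPM in Ctrl-S-10D (log2F.C. 0.03). At 3 days no CAM gene passed the limit in either organ. CAM2 shares 41.2% of its 31-base stretches with other genes, so its value is uncertain.

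A group of 3 genes encodes proteins that handle CAMTA3 itself. SR1IP1, an adaptor that brings CAMTA3 to its degradation, had 3.27 CPM in Ti-R-10D and 2.76 CPM in Ctrl-R-10D (log2F.C. 0.25), but 78.0 CPM in Ti-S-10D and 108 CPM in Ctrl-S-10D (log2F.C. -0.47). It shares 9.54% of its 31-base stretches with other genes, nearly all with 1 neighbour. DSC1, an immune receptor that guards CAMTA3, had 21.3 CPM in Ti-R-10D and 18.2 CPM in Ctrl-R-10D (log2F.C. 0.22), and 7.77 CPM in Ti-S-10D and 7.30 CPM in Ctrl-S-10D (log2F.C. 0.09). DSC2, the other guard, had log2F.C. of 0.17 in roots and -0.17 in shoots at 10 days. At 3 days SR1IP1 was called higher in roots (0.31), against 8.51% of all genes, and none of the 3 genes passed the limit in shoots.

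The CBP60 family of calmodulin-binding proteins includes CBP60G and SARD1, activators of salicylic acid synthesis. It had 6 of 8 members higher in Ti roots at 10 days and none lower (median 0.25), against 23.7% of all genes higher. Beyond 0.3 there were 2, against 14.7% of all genes. CBP60A had 41.5 CPM in Ti-R-10D and 33.4 CPM in Ctrl-R-10D (log2F.C. 0.31). CBP60G had 4.13 CPM in Ti-R-10D and 2.18 CPM in Ctrl-R-10D (log2F.C. 0.92), and 16.4 CPM in Ti-S-10D and 8.49 CPM in Ctrl-S-10D (log2F.C. 0.95). In shoots at 10 days 3 of 8 were higher and 1 lower (median 0.14), against 24.2% of all genes higher and 21.7% lower. At 3 days the counts were 0 higher and 1 lower in roots, against 8.51% and 8.38% of all genes, and 4 higher and 0 lower in shoots, against 13.1% and 12%.

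Of 19 genes of salicylic acid synthesis and signalling, 14 were listed in roots. At 10 days 8 of these were higher and 2 lower (median 0.22), against 23.7% of all genes higher and 22.3% lower. In shoots 10 of 17 were higher and 2 lower (median 0.29), against 24.2% and 21.7% of all genes. The most changed in roots were the transcription factors WRKY54, with 2.32 CPM in Ti-R-10D and 1.04 CPM in Ctrl-R-10D (log2F.C. 1.16), and WRKY70, with 4.94 CPM in Ti-R-10D and 2.49 CPM in Ctrl-R-10D (log2F.C. 0.99). EDS1, known as a direct target of CAMTA3 and a hub of immune signalling, had 43.8 CPM in Ti-R-10D and 45.4 CPM in Ctrl-R-10D (log2F.C. -0.05), and 16.0 CPM in Ti-S-10D and 16.4 CPM in Ctrl-S-10D (log2F.C. -0.04). NDR1, another known target, which acts with other immune receptors, had log2F.C. of -0.01 in roots and 0.53 in shoots, where it had 5.02 CPM in Ti-S-10D and 3.47 CPM in Ctrl-S-10D.

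EIN3, the transcription factor of ethylene signalling, had 217 CPM in Ti-R-10D and 193 CPM in Ctrl-R-10D (log2F.C. 0.17), and 184 CPM in Ti-S-10D and 156 CPM in Ctrl-S-10D (log2F.C. 0.24). ICS1, which makes the precursor of salicylic acid, had 7.85 CPM in Ti-R-10D and 6.73 CPM in Ctrl-R-10D (log2F.C. 0.22), and 18.8 CPM in Ti-S-10D and 21.1 CPM in Ctrl-S-10D (log2F.C. -0.17). SARD1 stayed near or under 1 CPM, with 0.891 CPM in Ti-R-10D and 0.767 CPM in Ctrl-R-10D (log2F.C. 0.22). The list, which shares CBP60G and SARD1 with the CBP60 family, therefore held genes on both sides. At 3 days 1 of 14 was higher and 2 lower in roots, against 8.51% and 8.38% of all genes, and 5 of 17 were higher and 2 lower in shoots, against 13.1% and 12%.

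Of 14 cold genes, 12 were listed in roots, with 4 higher and 4 lower at 10 days (median -0.02), not far from the 23.7% of all genes higher and 22.3% lower. In shoots 13 were listed, with 8 higher and 0 lower (median 0.37), against 24.2% and 21.7% of all genes. CBF2, a master regulator of cold acclimation, had 18.8 CPM in Ti-R-10D and 13.4 CPM in Ctrl-R-10D (log2F.C. 0.49), and 17.6 CPM in Ti-S-10D and 6.57 CPM in Ctrl-S-10D (log2F.C. 1.42). CBF1 had 3.79 CPM in Ti-R-10D and 4.13 CPM in Ctrl-R-10D (log2F.C. -0.12), and 4.16 CPM in Ti-S-10D and 1.32 CPM in Ctrl-S-10D (log2F.C. 1.66). The CBF genes share up to 11.0% of their 31-base stretches with other genes, mostly with each other.

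CBF3 had 1.56 CPM in Ti-R-10D and 2.62 CPM in Ctrl-R-10D (log2F.C. -0.75), and only 0.652 CPM in Ti-S-10D and 0.116 CPM in Ctrl-S-10D. KIN2, a late cold-induced gene, had 57.7 CPM in Ti-R-10D and 125 CPM in Ctrl-R-10D (log2F.C. -1.11). ZAT12, a zinc-finger gene of cold and oxidative stress, had 82.3 CPM in Ti-R-10D and 67.8 CPM in Ctrl-R-10D (log2F.C. 0.28), and 31.7 CPM in Ti-S-10D and 24.5 CPM in Ctrl-S-10D (log2F.C. 0.37). Regulators were found on both sides in roots. At 3 days 1 of 12 was higher and 2 lower in roots, against 8.51% and 8.38% of all genes, and 3 of 13 were higher and 4 lower in shoots, against 13.1% and 12%.

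Genes of the rapid response to wounding and touch, some of which are known to need CAMTA3 for their induction, were mostly higher. At 10 days 12 of 14 were higher in roots (median 0.39) and 12 of 14 in shoots (median 0.72), with none lower. Over all genes the shares higher were 23.7% in roots and 24.2% in shoots, with medians of 0.02 and 0.01. WRKY33, a regulator of camalexin synthesis, had 128 CPM in Ti-R-10D and 70.2 CPM in Ctrl-R-10D (log2F.C. 0.87), and 86.3 CPM in Ti-S-10D and 42.6 CPM in Ctrl-S-10D (log2F.C. 1.02). CML38, a calmodulin-like protein, had 29.7 CPM in Ti-R-10D and 16.6 CPM in Ctrl-R-10D (log2F.C. 0.84), and 21.2 CPM in Ti-S-10D and 9.01 CPM in Ctrl-S-10D (log2F.C. 1.23). At 3 days 4 of 14 were higher and 0 lower in roots (median 0.12), against 8.51% and 8.38% of all genes, and 12 of 14 were higher and 2 lower in shoots (median 0.42), against 13.1% and 12%. In shoots these genes differed at 3 days, when CAMTA2 was the 1 member past the limit (log2F.C. 0.21), a call lost with quantile normalization. A link between them was not tested.

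All 5 genes of a list for the aluminium response were higher in Ti roots at 10 days (median 0.39), against 23.7% of all genes. Beyond 0.3 there were 3, against 14.7% of all genes. ALMT1 had 36.7 CPM in Ti-R-10D and 19.8 CPM in Ctrl-R-10D (log2F.C. 0.89), although at 3 days it had 11.4 CPM in Ti-R-3D and 15.5 CPM in Ctrl-R-3D (log2F.C. -0.44). CAMTA2, its known activator, was at log2F.C. 0.29 and -0.01 in the same comparisons. The part of CAMTA2 in the ALMT1 differences was not tested. MATE, a citrate transporter gene, had 9.52 CPM in Ti-R-10D and 5.23 CPM in Ctrl-R-10D (log2F.C. 0.87). In shoots at 10 days 2 of 5 were higher and 1 lower (median 0.15), against 24.2% and 21.7% of all genes. At 3 days 1 was higher and 1 lower in roots, against 8.51% and 8.38%, and 0 were higher and 1 lower in shoots, against 13.1% and 12%.

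**Figure D5:**
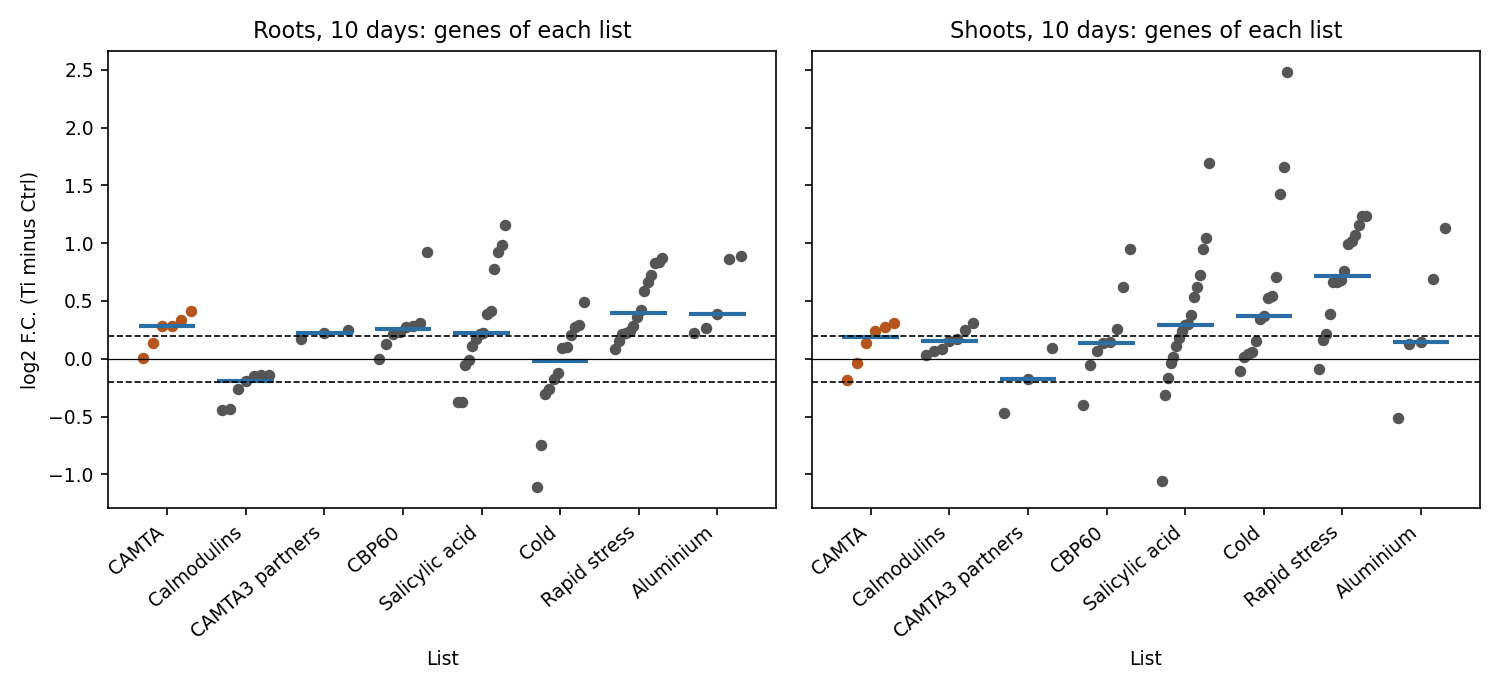
log2F.C. at 10 days (vertical axis) of each gene of the CAMTA family (orange) and of 7 related lists (grey) in roots (left) and shoots (right), with a blue line at each median and dashed lines at 0.2 in both directions. In roots the calmodulins all lie under 0 (median -0.20) while the CAMTA genes lie above it (median 0.28), and the rapid stress genes have the highest median (0.72) in shoots.

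CAMTA binding elements upstream of the named genes were read from TAIR10.1. Within 1000 bases before the gene start, on both strands, CGCGTT, the rapid stress response element, was found in 8.66% of 27443 protein-coding genes, and CCGCGT, an element first described in CBF2, in 5.75%. The 2 motifs overlap wherever CCGCGTT occurs. CGCGTT was found before 6 of 19 salicylic acid genes, 4 of 14 cold genes, 2 of 14 rapid stress genes, 1 of 5 aluminium genes, 2 of 8 CBP60 genes and none of the 6 CAMTA genes, 7 calmodulins and 3 partners. Of the 7 root markers, which are not known as targets, 2 also have it. CCGCGT was found before 2 of 6 CAMTA genes, CAMTA2 and CAMTA5, and before 2 of 7 calmodulins, 1 of 3 partners, 1 of 8 CBP60, 3 of 19 salicylic acid, 3 of 14 cold, 1 of 14 rapid stress and 1 of 5 aluminium genes. The lines show these 2 sites and those of target genes named above, 30 bases each in the direction of the gene, with the element in capitals. ACGCGG and AACGCG are the same elements on the other strand, and EIN3 and ZAT12 have further sites that are not shown.
CAMTA2, 375 bases before the start, chr5:25685806-25685835: ttatcagctgatACGCGGcgaatactgctg
CAMTA5, 541 bases before the start, chr4:9147506-9147535: attgtttgtcacACGCGGaaaattaactgt
CBF2, 75 bases before the start, chr4:13016293-13016322: gagacagaaactCCGCGTtcgaccccacaa
EIN3, 218 bases before the start, chr3:7263585-7263614: ataaataaaactCCGCGTaagaaacaatta
NDR1, 37 bases before the start, chr3:7194722-7194751: tgtatttggctaAACGCGtgtgtgcgtgtg
EDS1, 981 bases before the start, chr3:17759111-17759140: actcgcagctaaAACGCGcaaagatctgag
ZAT12, 45 bases before the start, chr5:24102757-24102786: gtctcttaagctACGCGGtgtcgcaaatcg
The genes shown had root log2F.C. at 10 days between -0.05 (EDS1) and 0.49 (CBF2). Of the other genes named above, CBP60G (log2F.C. 0.92) and CBP60A (log2F.C. 0.31) also have CGCGTT in this window. SR1IP1 (log2F.C. 0.25) and CAM2 (log2F.C. -0.14) have CCGCGT, and the root marker EXPA7 (log2F.C. 0.13) has both elements. Over all genes listed, 27.5% of those with CCGCGT and 23.2% of those without it were higher in Ti roots at 10 days, and 28.0% and 24.0% in Ti shoots. The shares lower were 20.6% with CCGCGT and 22.5% without it in roots, and 19.4% and 21.7% in shoots. In roots at 3 days the order was the other way, with 6.73% higher among genes with CCGCGT and 8.40% among those without it. For CGCGTT the shares higher were 25.5% with the element and 23.2% without it in roots, and 25.4% and 24.1% in shoots. WRKY33, CML38 and ALMT1 have neither element in this window, and CAMTA3 has no CGCG in it either.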

How the data were processed

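Per the labels and the methods of the study, RNA of pooled seedlings was sequenced, reads were checked with FastQC 0.11.9, trimmed with Trim Galore 0.6.6 and assigned to Araport11 transcripts with kallisto 0.44.0, summed to genes and fitted in edgeR once genes of low CPM had been dropped. What the authors deposited is log2 CPM, with roots and shoots normalized apart. The columns of a group were identical in all rows, so the tests planned across replicates were not run. Counts beyond 0.2 are given instead, and they are not tests. The study's methods used this limit together with a false discovery rate, which could not be computed here. CPM were recovered as powers of 2. The members and gene lists were chosen with earlier results of these data known. Named are all members, the 2 genes of each list with the largest absolute log2F.C. in roots at 10 days among those of at least 1 CPM in Ti or Ctrl, genes with a known role beside a CAMTA protein, and the genes of most similar pattern.

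Coordinates, sequences and lengths come from the RefSeq copy of TAIR10.1, which is not the Araport11 annotation of the authors. Coding sequences were aligned with biopython 1.88, and 31-base stretches were compared across all transcripts. Scripts ran in Python 3.11.15 (pandas 2.3.3, numpy 2.4.6, matplotlib 3.10.9, scipy 1.17.1). The arithmetic of the calls was checked by adding known log2 shifts to some genes. No replicate noise was added, so this check cannot say how reliable a call is. Alternatives were 1 CPM added to each value, scaling by the median or the sum, quantile normalization, a limit of 0.3, genes of at least 10 CPM as background, Spearman's rho and, chosen after seeing the data, coding length. Each group holds 1 value, so no interval is given.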

Additional observations from a re-analysis of the deposited data

Results flagged for a closer look

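At 10 days, 2 genes of the related lists lay beyond the limit in opposite directions in the 2 organs, a difference that was not tested. SR1IP1 had a log2F.C. of 0.25 in roots and -0.47 in shoots. Its root levels were low, with 3.27 CPM in Ti-R-10D and 2.76 CPM in Ctrl-R-10D. With 1 CPM added to each value, its root difference fell under the limit. MATE had a log2F.C. of 0.87 in roots and -0.51 in shoots, where it had 4.71 CPM in Ti-S-10D and 6.71 CPM in Ctrl-S-10D. No CAMTA gene did so.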

How the results depend on the processing

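No paired analysis was possible because a group's 3 columns are identical, and for the same reason no replicate could be left out. No value past the limit changed direction. Member values within 0.06 of 0 could change sign with another scaling. With quantile normalization CAMTA1 in roots at 10 days came to -0.0164, CAMTA1 with time in Ti roots to -0.0144, and CAMTA2 and CAMTA4 with time in Ctrl roots to -0.0063 and -0.0427. By coding length 19 of 48 ranks moved, and CAMTA6 passed CAMTA3 in Ti-R-10D. Scaling moved the all-gene median by less than 0.1 on the log2 scale, the farthest by -0.0487 in shoots at 10 days. With 1 CPM added, the lists had 0 (cold), 1 (rapid stress) and 0 (aluminium) genes higher in roots at 3 days, 1 partner and 5 salicylic acid genes higher in roots at 10 days, 0 salicylic acid and 0 rapid stress genes lower in shoots at 3 days, and 1 aluminium gene higher in shoots at 10 days. Median scaling gave 1 rapid stress gene lower in roots at 3 days and 1 CAMTA gene lower in shoots at 10 days. Quantile normalization gave 0 CAMTA genes higher with time in Ctrl roots and 0 with Ti in shoots at 3 days, 0 cold and 0 aluminium genes higher in roots at 3 days, 2 cold genes higher in roots at 10 days, and in shoots at 3 days 1 rapid stress gene lower and 1 aluminium gene higher. Scaling to the same sum gave 1 CAMTA gene lower in shoots at 10 days, 2 higher with time in Ti shoots, 1 salicylic acid gene lower in shoots at 3 days and 2 partners lower in shoots at 10 days.

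Beyond 0.3, CAMTA genes higher numbered 2 in roots and 1 in shoots at 10 days, 0 in shoots at 3 days, and 0 with time in Ctrl roots and Ti shoots. In roots at 3 days this limit left 1 salicylic acid gene lower, 0 cold genes higher and 1 lower, 2 rapid stress genes higher and 0 aluminium genes higher. In roots at 10 days it left 0 partners, 2 CBP60, 1 cold and 3 aluminium genes higher. In shoots it left 3 salicylic acid genes higher, 1 lower and 1 rapid stress gene lower at 3 days, and 1 calmodulin gene higher at 10 days. Of all genes in roots, 4.85% were higher and 4.56% lower beyond 0.3 at 3 days, and 14.7% and 14.0% at 10 days. In shoots these shares were 6.90% and 7.38% at 3 days, and 15.3% and 13.7% at 10 days. With time, 23.2% of all genes were higher beyond 0.3 in Ctrl roots and 28.2% in Ti shoots. Genes of at least 10 CPM were also taken as background, with the limit used for the calls and not 0.3. Their shares called higher and lower at 3 days were 2.44% and 2.36% in roots and 7.14% and 3.51% in shoots. A stricter limit leaves fewer genes by construction, and the cause of the other shifts was not tested.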

Other observations

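The rapid stress genes differed far more with time than with Ti in roots. All 14 were higher at 10 than at 3 days, with a median log2 difference of 3.15 in Ti roots and 2.99 in Ctrl roots, against 33.9% of all genes higher in Ti roots and 30.4% in Ctrl roots. CAF1A, a deadenylase gene chosen after its values were seen, had 148 CPM in Ti-R-10D and 133 CPM in Ctrl-R-10D, but 1.95 CPM in Ti-R-3D and 1.67 CPM in Ctrl-R-3D. In shoots 12 of 14 were higher with time in Ti (median 1.097) and 10 of 14 in Ctrl (median 1.07), against 35.0% and 33.0% of all genes. The CAMTA genes differed over the same interval by 0.02 to 0.66 on the log2 scale in roots. The calmodulins had 5 of 7 members lower with time in Ti roots, with a median of -0.38, and 2 of 7 in Ctrl roots, with a median of -0.14, against 35.1% and 30.6% of all genes lower. Time, age and day of harvest cannot be told apart.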
